A study of Caenorhabditis elegans with 42 samples.

Results

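Embryos of the Caenorhabditis elegans strain BB3, which carries the gv42 allele of adr-2, were set beside embryos of the wildtype strain N2, with 3 BB3 and 4 N2 libraries, 7 of the 42 libraries in the series. All transcripts in the authors' table for this pair of groups were used. Beside it stand the same strain as L4 larvae, the last larval stage (3 BB3 and 3 N2 libraries), embryos of RB886, which carries the adr-2 allele ok735 (3 libraries), and embryos of the adr-1 mutants BB19 (allele tm668, 3 libraries) and BB2 (allele gv6, 2 libraries). Lists of RNA bound by ADR-1 came from young adults of HH76 (adr-1 tm668) and HH134 (adr-1 tm668 and adr-2 ok735), which carry a transgene of FLAG-tagged adr-1, and of the untagged BB21 (adr-1 tm668 and adr-2 ok735), with 2 pull-down libraries each. All were whole worms grown at 20 °C on OP50 bacteria. Embryos were freed from gravid adults with hypochlorite, so a library pools embryos whose ages were not recorded in the labels, and RNA came from the high molecular weight fraction after removal of ribosomal RNA. The labels do not say what the gv42 allele removes. A BB3 and an N2 embryo library carry the same date in their titles, and the other BB3 embryo libraries carry dates of their own. Of the RB886 embryo libraries 2 share a date, and the other shares its date with an N2 embryo library. The tests below count RB886 embryos as 3 libraries, and what the dates record is not stated.

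ADAR enzymes turn adenosine into inosine within double-stranded RNA, and the cell reads inosine as guanosine. In C. elegans ADR-2 is the active deaminase, and ADR-1 binds double-stranded RNA and guides ADR-2 to its substrates without deaminating them itself. Animals that lack adr-2 have no adenosine-to-inosine editing of messenger RNA, remain viable, and are known for defects in chemotaxis. Edited sites in this worm lie mostly in paired repeats of introns and 3′ untranslated regions, and editing is known to keep such duplexes from entering the RNA interference pathway.

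The unit throughout is the authors' mean normalised read count of a strain and stage, called a mean below. Values of single libraries were not used, so the means carry no SD, and each log2 ratio is that of the authors' deposited fold change, mutant over N2. The means summed to 17255191 in BB3 embryos and 16599428 in N2 embryos. Of 30304 genes 27166 had a test, and a gene is called higher or lower at an adjusted p under 0.05 in the authors' deposited table. Differences between strains or stages were tested with an assumed spread of 20% between libraries (two-sided normal test, Benjamini-Hochberg adjusted over all genes at 0.05) and are given with the SE under that spread. The deposited p follows counting error closely and holds little of the spread between libraries, so alternatives that assume a spread of 10% or 20% between libraries are given where they matter. Over the 10001 genes with an average mean of at least 100, the scatter of the difference between BB3 and RB886 embryos left room for a typical spread of 11.1% between libraries. The labels number the libraries of a group as biological replicates and do not say which cultures they came from. The labelled stage was checked against markers: 16 embryonic markers summed to 13675 in BB3 and 12552 in N2 embryos, against 3940 in BB3 and 4503 in N2 L4 larvae. Markers of adult soma and yolk summed to 137 in BB3 and 173 in N2 embryos, against 22820 in BB3 and 26190 in N2 L4 larvae. Sperm markers summed to 50.3 in BB3 and 59.6 in N2 embryos, against 5978 in BB3 and 6261 in N2 L4 larvae.

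The targeted gene was low. The mean of adr-2 (T20H4.4) was 117 in BB3 embryos, against 2010 in N2 embryos, a log2 ratio of −4.11. It stood at −3.99 in RB886 embryos, read against the same N2 libraries, and at −3.51 in BB3 L4 larvae. Its partner adr-1 (H15N14.1) had a mean of 6550 in BB3 embryos and 6290 in N2 embryos (log2 ratio 0.06, adjusted p = 0.925 in the authors' deposited table), and each of its 5 listed transcripts lay between 0.06 and 0.07 without a call. The other members of the editing list, adbp-1, an ADR-2 binding protein, and tag-341, the ADAT-like relative, stood at −0.04 and −0.02 without a call. T20H4.5, which carries the next number on the clone of adr-2, fell to 508 in BB3 embryos, against 603 in N2 embryos (log2 ratio −0.25), with −0.35 in RB886 embryos and −0.26 in BB3 L4 larvae.

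Most of the changes called were small. By the deposited adjusted p, 4411 genes (16.2% of those tested) were called, 2827 higher (10.4%) and 1584 lower (5.83%). Of these 2271 moved by less than 0.25 on the log2 scale and 980 by 0.25 to 0.5, and the median size was 0.24. Of the genes tested, 426 were called with a change of at least 2-fold (1.57%), 371 of them higher (1.37%) and 55 lower (0.202%). Among the 15386 genes with an average mean of at least 10, 17% were called higher and 10.1% lower, and 165 and 26 genes reached 2-fold in these directions. With an assumed spread of 10% between libraries 843 genes passed (3.1%), 733 of them higher (2.7%) and 110 lower (0.405%), and with 20% 125 passed (0.46%), 109 of them higher (0.401%) and 16 lower (0.0589%). All 125 genes that passed with 20% were also called at the deposited adjusted p.

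**Figure D1:**
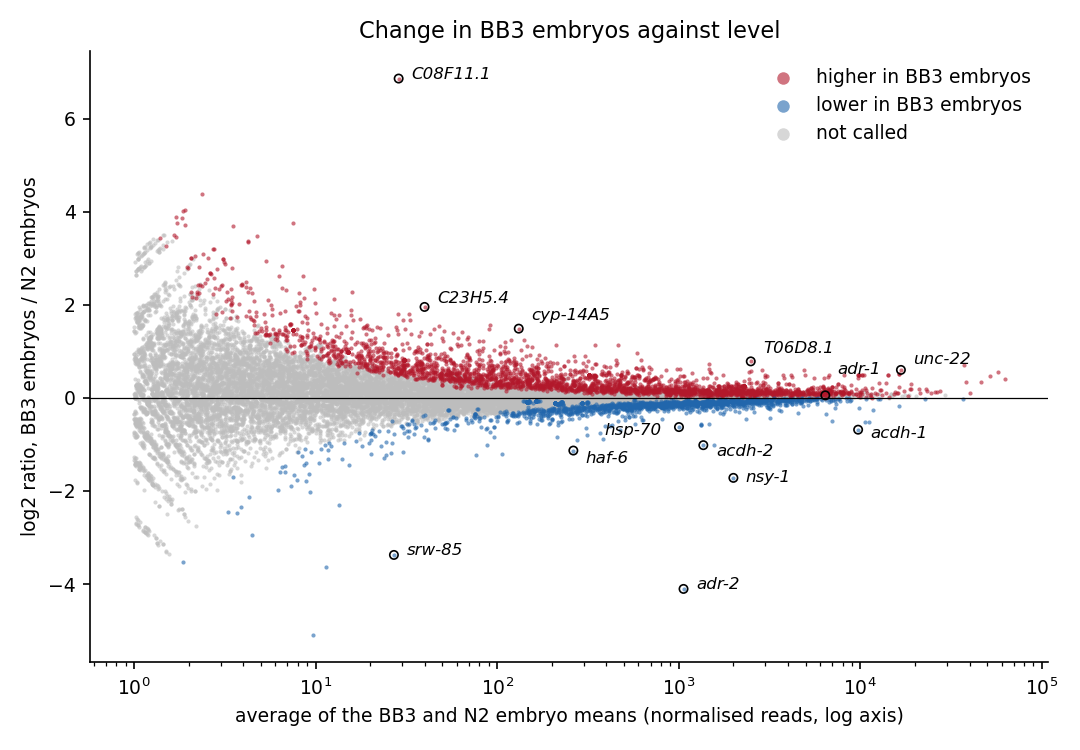
Each point is a gene with an average embryo mean of at least 1, the x axis gives that average in normalised reads on a log axis and the y axis the log2 ratio of BB3 over N2 embryos. Red genes were called higher and blue genes lower in the authors' deposited table. C08F11.1 at 6.87 and adr-2 at −4.11 stand far from the other genes of their level, and most called genes of high level lie close to 0.

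Beside adr-2, the deepest falls left genes with means of under 5 in BB3 embryos. Y102A5C.6, annotated as a pseudogene, had a mean of 1.71 in BB3 embryos and 21.1 in N2 embryos (log2 ratio −3.63). Its neighbour Y102A5C.5, also a pseudogene, stood at 0.549 in BB3 embryos and 18.7 in N2 embryos (−5.09), and Y102A5C.36 was listed at 0 in BB3 embryos and at 10.3 in N2 embryos. In RB886 embryos, read against the same N2 libraries, Y102A5C.6 stood at −4.14 and Y102A5C.36 was listed at 0, and in BB3 L4 larvae Y102A5C.6 stood at −4.15. In the adr-1 mutants Y102A5C.36 had means of 29.2 in BB19 embryos and 35.8 in BB2 embryos. srw-85, a predicted chemoreceptor gene, had 4.75 in BB3 embryos and 49.3 in N2 embryos (−3.37), with −5.89 in RB886 embryos and −3.88 in BB3 L4 larvae. srw-85 stood at −5.39 in BB2 and at 0.52 in BB19 embryos, on opposite sides of 0 in the adr-1 alleles. nhr-82, a nuclear hormone receptor gene, fell to 4.57 in BB3 embryos, against 22.4 in N2 embryos (−2.29), with −1.82 in RB886 embryos.

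Other large falls had RB886 values that lay above, near or below those of BB3. The uncharacterised gene T10E9.4 had a mean of 8.22 in BB3 embryos and 22.3 in N2 embryos (log2 ratio −1.44), and stood at 0.39 in RB886 embryos. That difference of strains, in which the N2 libraries cancel, was −1.77 ± 0.40 (log2, SE with a spread of 20%) and passed the test. ugt-34, a UDP-glucuronosyltransferase gene, had 13.9 in BB3 embryos and 34 in N2 embryos (−1.29), with −0.21 in RB886 embryos. The globin gene glb-16 stood at −1.31 in BB3 embryos, −2.31 in RB886 embryos and −2.18 in BB3 L4 larvae. oac-43, oac-44 and oac-45, acyltransferase-like genes that lie next to each other, fell together, with log2 ratios of −1.19, −1.19 and −1.22. In RB886 embryos they stood at −0.10, −0.71 and −0.60. The difference of strains did not pass the test for ugt-34, glb-16 or any of the oac genes. B0511.11 (−1.20) and Y17D7C.4 (−1.24) had RB886 values of −1.18 and −1.20, and the neighbour Y17D7C.3 fell to 270 in BB3 embryos, against 497 in N2 embryos (−0.88). haf-6, an ABC transporter gene required for efficient RNA interference, had 165 in BB3 embryos and 361 in N2 embryos (−1.13), and stood at −2.1 in BB3 L4 larvae. That difference between the stages, 0.97 ± 0.34 (log2, SE with a spread of 20%), did not pass the test.

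The largest rise was that of the uncharacterised gene C08F11.1, with a mean of 56.9 in BB3 embryos and 0.487 in N2 embryos (log2 ratio 6.87). All other mutant embryos read against these N2 libraries were as high, at 7.26 in RB886, 7.13 in BB19 and 7.06 in BB2. N2 L4 larvae had a mean of 34.2 and BB3 L4 larvae one of 23.4, so of these groups the N2 embryos had the lowest level. sdz-20, a gene switched on in the early embryo downstream of SKN-1, had 26.4 in BB3 embryos and 5.49 in N2 embryos (2.27), with 2.17 in RB886 embryos. C23H5.4 had 63.4 in BB3 embryos and 16.3 in N2 embryos (1.96), and its neighbours C23H5.5 and C23H5.6 rose too (1.40 and 1.47). C23H5.4 and C23H5.5 are annotated as pseudogenes. The C23H5 genes were also high in BB3 L4 larvae, at 2.04, 0.97 and 1.51, and in RB886 embryos, at 1.79, 1.33 and 1.42.

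The other leading rises were mostly of genes with low means. col-156, a cuticle collagen gene, had 24.7 in BB3 embryos and 6.68 in N2 embryos (1.89), and abu-1, of a glutamine-rich protein family, 15.8 in BB3 embryos and 4.42 in N2 embryos (1.84). fipr-3, named for its likeness to fungus-induced peptides, stood at 1.83, the sulfatase-like gene sul-3 at 1.80, the potassium channel gene twk-5 at 1.79 and the tyrosinase-like gene tyr-1 at 1.68. The uncharacterised genes Y50E8A.19, F33C8.4, Y73F4A.2, C30F2.3, F55G1.12 and F22B7.16 stood between 1.70 and 2.13. The 15 largest rises all passed with an assumed spread of 20%, and 8 of the 15 largest falls did. Both sets were picked by these same ratios among called genes with an average mean of at least 10. Passing is therefore no separate support for them. Of these rises sul-3, F55G1.12 and F22B7.16 were higher in BB3 than in RB886 embryos in the test of the difference (by 1.31 ± 0.32, 2.49 ± 0.52 and 1.72 ± 0.40 on the log2 scale, SE). In adr-1 mutant embryos sul-3 had 62.4 in BB19 and 48.4 in BB2, against 14.6 and 15.1 in N2 embryos. F55G1.12 had 26.3 in BB19 and 4.92 in BB2, against 6.08 and 6.3 in N2 embryos. F22B7.16 had 4.75 in BB19 and 15.9 in BB2, against 8.27 and 8.58 in N2 embryos.

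**Figure D2:**
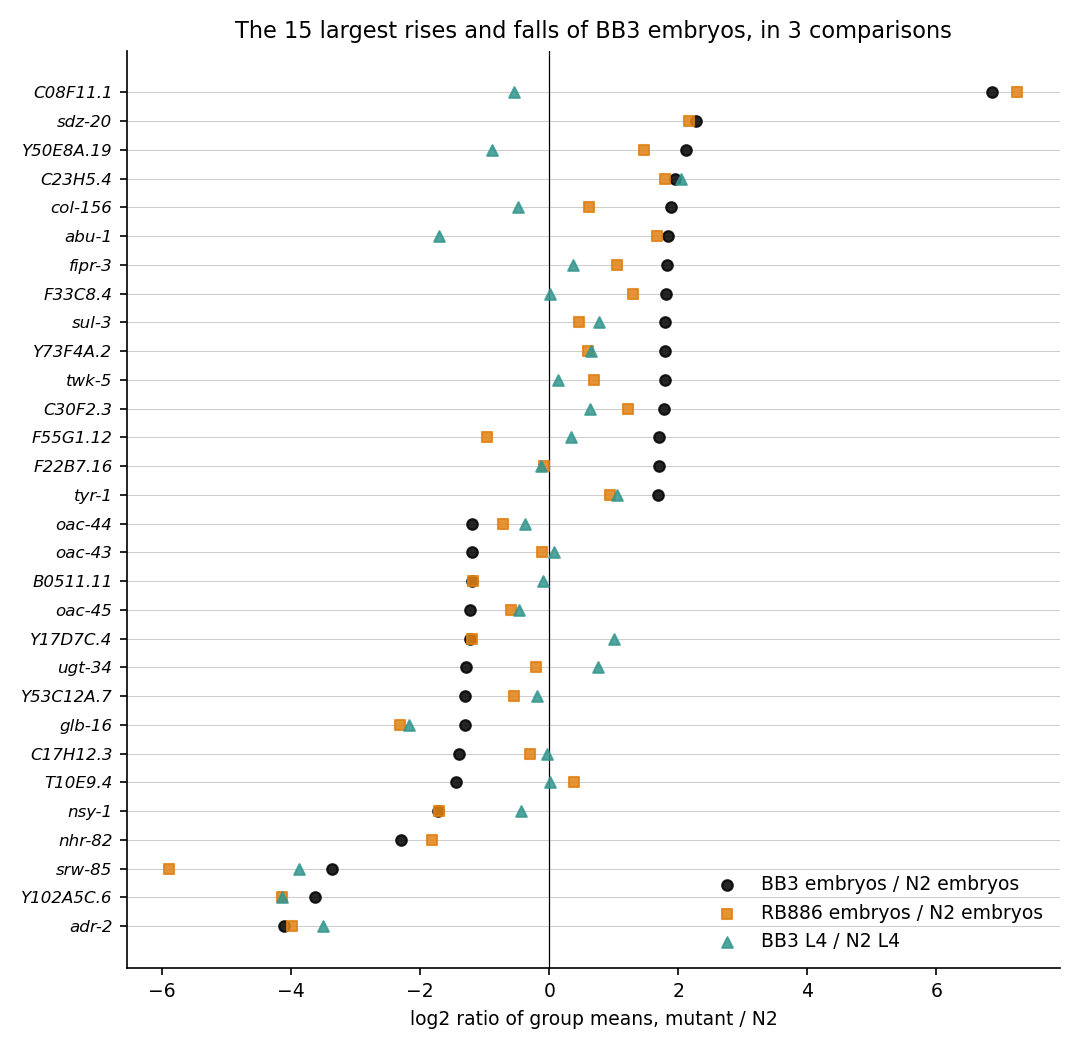
Listed are the 15 largest rises and 15 largest falls of BB3 embryos among called genes with an average mean of at least 10. The x axis gives the log2 ratio of group means, mutant over N2, in BB3 embryos (circles), RB886 embryos (squares) and BB3 L4 larvae (triangles). The L4 values of sdz-20 and nhr-82 are not drawn because their N2 mean is listed at 0. C08F11.1 is far above 0 in both embryo comparisons and below 0 at L4, and adr-2, Y102A5C.6 and srw-85 are low in all 3.

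nsy-1 had the largest fall among abundant genes after adr-2. It encodes a MAP kinase kinase kinase, a relative of mammalian ASK1, which acts through SEK-1 and PMK-1 in immune defence and in the asymmetry of the AWC olfactory neurons. Its mean was 933 in BB3 embryos and 3070 in N2 embryos (log2 ratio −1.72), with −1.71 in RB886 embryos, −0.10 in BB19 and −0.41 in BB2. At L4 nsy-1 had 954 in BB3 larvae and 1290 in N2 larvae (−0.44), and the change was deeper in embryos by 1.28 ± 0.33 on the log2 scale (SE), which passed the test. Among 31 genes of the p38 and JNK cascades 7 were called higher and 4 lower (22.6% and 12.9%), with a median log2 ratio of 0.02, beside 0.04 over all genes. An average mean of at least 10 was reached by 29 of them, and over all such genes 17% were called higher and 10.1% lower. Medians of lists are taken after adding 1 to each mean. The 28 members other than nsy-1 with an average mean of at least 10 lay between −0.18 and 0.43. sek-1, the kinase below NSY-1, had 1690 in BB3 embryos and 1720 in N2 embryos (−0.03), and the p38 kinase gene pmk-1 had 594 in BB3 embryos and 606 in N2 embryos (−0.03), neither called. tir-1, the adaptor above NSY-1, stood at 0.14 and was called higher, and mom-4, another kinase of this level, at −0.18 and was called lower.

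The falls of largest size at high level included a pair of acyl-CoA dehydrogenase genes. acdh-1, the acyl-CoA dehydrogenase of the propionate shunt, had a mean of 7470 in BB3 embryos and 12000 in N2 embryos (log2 ratio −0.68), with −0.32 in RB886 embryos and −0.14 in BB3 L4 larvae. acdh-2, a related dehydrogenase gene, had 904 in BB3 embryos and 1830 in N2 embryos (−1.01), and its neighbour ins-13, an insulin-like peptide gene, 1050 in BB3 embryos and 2100 in N2 embryos (−1.0). The 3 listed transcripts of acdh-2 lay between −1.01 and −0.98. RB886 embryos stood at −0.09 for acdh-2 and −0.06 for ins-13, and the difference of strains, −0.93 ± 0.24 (SE) for each gene, passed the test. acdh-2 and ins-13 moved as a pair in other groups as well, with −1.04 and −1.05 in BB19 embryos, −1.05 and −1.08 in RB886 L4 larvae, and −0.03 and 0.01 in BB3 L4 larvae. Among the adr-2 strains they were low in BB3 at the embryo stage and in RB886 at L4. The RefSeq annotation places them so that they overlap, and no label says whether counting used strand, so reads of acdh-2 and ins-13 cannot be told apart. Of the fatty acid desaturase genes, fat-6 (274 in BB3 embryos and 461 in N2 embryos, −0.75) and fat-5 (44.5 in BB3 embryos and 71.4 in N2 embryos, −0.68) fell, and RB886 embryos stood at 0.07 and 0.35, whereas fat-7 stood at −0.62 without a call at 5.05 in BB3 embryos and 7.76 in N2 embryos. The difference of strains did not pass the test for fat-6 (−0.82 ± 0.24) or fat-5 (−1.02 ± 0.28).

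Inducible heat shock genes were lower in BB3 embryos. hsp-70, the stress-inducible chaperone gene, had a mean of 788 in BB3 embryos and 1220 in N2 embryos (log2 ratio −0.63). The small heat shock genes hsp-16.48 and hsp-16.49, whose means are identical so that their reads cannot be told apart, had 1070 in BB3 embryos and 1600 in N2 embryos (−0.58). hsp-16.11 stood at −0.56, hsp-16.1 at −0.55, hsp-16.41 at −0.48 and hsp-16.2 at −0.40. These genes were low in BB3 L4 larvae as well, from −0.50 for hsp-16.1 to −0.30 for hsp-16.2. RB886 embryos stood above N2, with 1710 in RB886 and 1270 in N2 embryos for hsp-70 (0.43) and 0.34 for hsp-16.11. The difference of strains was −1.06 ± 0.24 for hsp-70 and −0.91 ± 0.24 for hsp-16.11 (log2, SE) and passed the test for both. It narrowly missed the threshold for hsp-16.1 (−0.90 ± 0.24), and hsp-16.48 and hsp-16.49 (−0.80 ± 0.24) did not pass. The values of hsp-16.11 and hsp-16.1 are nearly equal, and whether their reads are separate was not tested. hsp-6 and hsp-60 of the mitochondrion stood at 0.13 and 0.12, and hsp-3 of the endoplasmic reticulum at 0.10, all called higher. crt-1 and cnx-1, chaperones of the endoplasmic reticulum, stood at −0.17 and −0.03 and were called lower. Of 61 heat shock and folding genes 4 were called higher and 15 lower (6.56% and 24.6%), with a median of −0.01, and none passed with a spread of 20%.

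**Figure D3:**
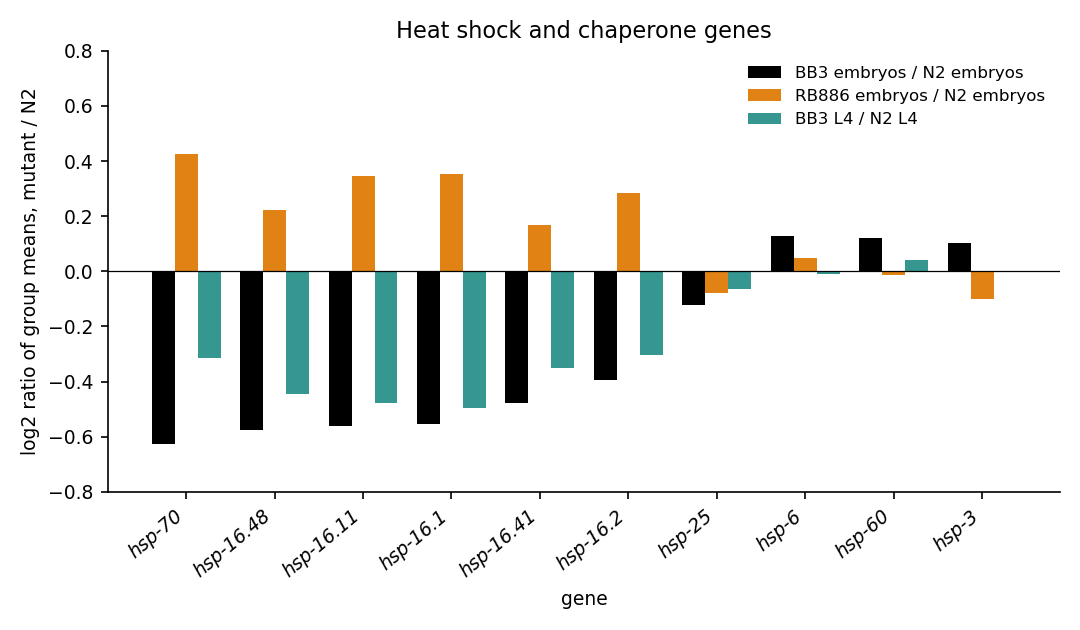
Bars give the log2 ratio of group means, mutant over N2, for 10 heat shock and chaperone genes in BB3 embryos (black), RB886 embryos (orange) and BB3 L4 larvae (green). The inducible genes from hsp-70 to hsp-16.2 are below 0 in both BB3 groups and above 0 in RB886 embryos, and hsp-6, hsp-60 and hsp-3 lie near 0.

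Where neuronal genes were called, they were mostly higher. Of 85 neuronal genes 40 were called higher and 2 lower (47.1% and 2.35%), with a median log2 ratio of 0.15, beside 0.04 over all genes. In such whole-animal samples more cells of a type and more RNA per cell cannot be told apart. cho-1, the choline transporter of cholinergic neurons, had 105 in BB3 embryos and 60 in N2 embryos (0.81), and cha-1, which makes acetylcholine, 106 in BB3 embryos and 78.6 in N2 embryos (0.44). Of the genes of dopamine neurons in the list, cat-2, the tyrosine hydroxylase, had 72.6 in BB3 and 43.7 in N2 embryos (0.73) and the transporter gene dat-1 stood at 0.69, both called higher. cat-1 and bas-1, which act in dopamine and serotonin neurons, stood at 0.19 and 0.04 without a call. eat-4, the vesicular glutamate transporter, stood at 0.59. The synaptic vesicle gene snt-1, synaptotagmin, had 346 in BB3 embryos and 241 in N2 embryos (0.52). tph-1, the tryptophan hydroxylase of serotonin neurons, fell to 63.9 in BB3 embryos, against 85.1 in N2 embryos (−0.41).

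Channel and peptide genes of the nervous system also had more rises than falls. Among 44 tandem-pore potassium channel genes, which set the resting potential, 19 were called higher and 0 lower (43.2% and 0%), with a median of 0.30. twk-33 had 30.2 in BB3 embryos and 10.9 in N2 embryos (1.47), twk-24 had 96.7 in BB3 embryos and 39.9 in N2 embryos (1.28), and egl-23 stood at 0.55. Of 107 neuropeptide genes 19 were called higher and 2 lower (17.8% and 1.87%, median 0.24), led by flp-7 with 17.3 in BB3 embryos and 7.29 in N2 embryos (1.24). nlp-16 had 153 in BB3 embryos and 77.7 in N2 embryos (0.98), and pdf-1, the pigment-dispersing factor, 133 in BB3 embryos and 77.9 in N2 embryos (0.78). None of the 85 neuronal genes passed with a spread of 20%, and 3 of the channel and 2 of the peptide genes did.

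Many sarcomere genes rose in BB3 embryos. Of 55 muscle genes 30 were called higher and 3 lower (54.5% and 5.45%), with a median of 0.08. unc-22, twitchin, had a mean of 20200 in BB3 embryos and 13300 in N2 embryos (0.60), and ttn-1, titin, 71300 in BB3 embryos and 53500 in N2 embryos (0.42). The pharyngeal muscle genes let-75, a myosin heavy chain (5930 in BB3 and 3890 in N2 embryos, 0.61), myo-2 (2920 in BB3 and 1990 in N2 embryos, 0.55) and tnt-2, a troponin T (1780 in BB3 and 1150 in N2 embryos, 0.63), were among the highest. The called members lower in BB3 embryos include unc-97 at −0.07 and unc-112 at −0.02, both of muscle attachments. RB886 embryos, compared with the same N2 libraries, had 8 members called higher and 27 lower, where 9.27% and 8.93% of all genes were called, with a median of −0.11. ttn-1 stood at −0.11 and unc-22 at 0.16 there, whereas tnt-2 was as high as in BB3, with 1860 in RB886 and 1210 in N2 embryos. In BB19 and BB2 embryos unc-22 had 21900 and 19100 (N2 13300 and 13800) and let-75 had 7030 and 5940 (N2 3890 and 4040). tnt-2 had 1960 in BB19 and 2000 in BB2 embryos, against 1160 and 1200 in N2 embryos. Other muscle genes in adr-1 mutant embryos are not described here. In BB3 L4 larvae 11 members were called higher and 12 lower (8.51% and 8.4% of all genes), with a median of −0.02. None of the muscle genes passed with a spread of 20%, nor did the test of the difference from RB886 for any of them.

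**Figure D4:**
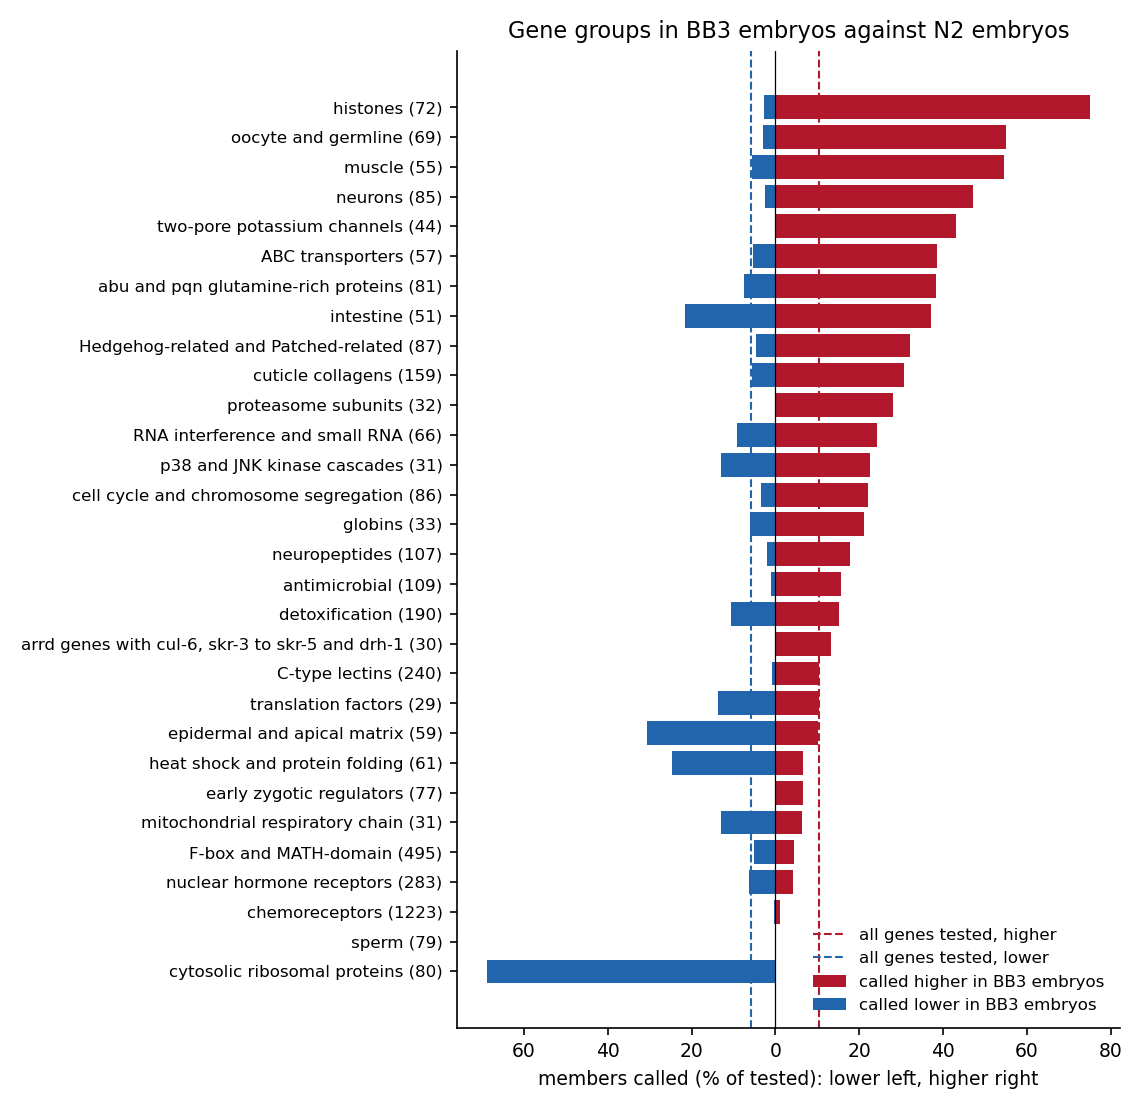
Bars give the share of the tested members of each gene list called higher (red, right) or lower (blue, left) in BB3 embryos, in percent, with the number tested in brackets, for lists of at least 20 tested members. Dashed lines mark the shares over all genes tested, 10.4% higher and 5.83% lower. Histones, germline, muscle and neuronal genes reach the highest shares of rises, and cytosolic ribosomal proteins the highest share of falls.

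Many histone and germline genes also rose, by small steps. Of 72 histone genes 54 were called higher and 2 lower (75% and 2.78%), with rises between 0.14 and 0.34. The H2B gene his-66 had 3890 in BB3 embryos and 3130 in N2 embryos (0.31). Histone genes of a class are near-identical copies, and his-57 and his-65 have the same means, so the number of separate measurements is smaller than 54. The linker histone gene his-24 fell (−0.20). Of 69 genes of the germline and oocytes 38 were called higher and 2 lower (55.1% and 2.9%), with a median of 0.12. cpb-1, an RNA-binding regulator in the germline, had 160 in BB3 embryos and 112 in N2 embryos (0.51), and lin-41, a regulator of oocyte growth, 1130 in BB3 embryos and 854 in N2 embryos (0.41). The germ granule helicase genes glh-1 (435 in BB3 and 573 in N2 embryos, −0.40) and glh-4 (−0.21) fell, and stood at 0.36 and 0.45 in RB886 embryos. The difference of strains did not pass the test for glh-1 (−0.75 ± 0.24) or glh-4 (−0.66 ± 0.24). Of the 16 embryonic markers 5 were called higher and 0 lower, among them mex-5 at 0.20 and pie-1 at 0.17, and the endoderm gene end-1 stood at 0.07 without a call. Among 86 cell cycle genes 19 were called higher and 3 lower (22.1% and 3.49%), led by top-2, topoisomerase II, at 0.21. Of 77 early zygotic genes 5 were called higher and 0 lower (6.49% and 0%), with a median of 0.01. None of the histone or germline genes passed with a spread of 20%. The germline list had 56 members called higher and 1 lower in RB886 embryos, compared with the same N2 libraries (9.27% and 8.93% of all genes). In BB3 L4 larvae 6 were called higher and 37 lower (8.51% and 8.4% of all genes). Of its 38 members called higher in BB3 embryos, 29 were among those 37.

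Genes of the cytosolic ribosome were the group with most falls. Of 80 genes 0 were called higher and 55 lower (0% and 68.8%), between −0.28 and −0.01, with a median of −0.06. rpl-11.1 had 789 in BB3 embryos and 957 in N2 embryos (−0.28), and rpl-43 had 1520 in BB3 embryos and 1750 in N2 embryos (−0.21). RB886 embryos had 1 member called higher and 69 lower (9.27% and 8.93% of all genes), with a median of −0.20. BB3 L4 larvae had 33 higher and 13 lower (8.51% and 8.4% of all genes), with a median of 0.00. Of 32 proteasome genes 9 were called higher and 0 lower (28.1% and 0%), with a median of 0.09. No member of either group passed with a spread of 20%.

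Cuticle collagen genes rose more often than they fell. Of 159 cuticle collagen genes tested 49 were called higher and 9 lower (30.8% and 5.66%), with a median of 0.22. col-12 had 632 in BB3 embryos and 289 in N2 embryos (1.13), and its neighbour col-13 had 289 in BB3 embryos and 132 in N2 embryos (1.14). col-12 and col-13 are close copies, and reads of such copies cannot be told apart. col-167 had 3470 in BB3 embryos and 2270 in N2 embryos (0.61), with 0.04 in RB886 embryos, and its difference of strains did not pass the test. Among the 59 genes of the epidermis and its apical matrix 6 were called higher and 18 lower (10.2% and 30.5%), with a median of −0.02. The cuticle collagen genes dpy-13 (29 in BB3 and 54 in N2 embryos, −0.90) and rol-6 (6.85 in BB3 and 14.6 in N2 embryos, −1.09), both counted here among markers of L4 larvae, were low in embryos of either strain, against means of 4030 and 1560 in BB3 L4 larvae. sqt-1, another such collagen, stood at −0.67 with 67.1 in BB3 embryos and 107 in N2 embryos. mlt-7, a peroxidase needed for moulting, rose to 434 in BB3 embryos, against 264 in N2 embryos (0.72), and let-805, the myotactin that joins epidermis to muscle, stood at 0.27. The 9 markers of L4 larvae had 1 called higher, which was lin-41, and 3 lower, with a median of −0.21. They summed to 2202 in BB3 and 1994 in N2 embryos, and the 8 without lin-41, counted also as an oocyte gene, to 1072 in BB3 and 1140 in N2 embryos.

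The abu and pqn genes are named for proteins rich in glutamine and asparagine, and several abu genes are known from the pharyngeal cuticle. The group had more rises than falls in embryos and more falls than rises in L4 larvae of the same strain. Of 81 tested, 31 were called higher and 6 lower in BB3 embryos (38.3% and 7.41%, median 0.07). In BB3 L4 larvae 9 were called higher and 38 lower, where 8.51% and 8.4% of all genes were called. Of the 31, 24 were called lower at L4, and they are among the 38 of the whole list. abu-1 stood at 1.84 in BB3 embryos and, with 125 in BB3 larvae and 412 in N2 larvae, at −1.72 at L4. pqn-2 had 13.3 in BB3 embryos and 3.19 in N2 embryos (2.06), and 113 in BB3 and 383 in N2 larvae (−1.76). abu-8 had 311 in BB3 embryos and 180 in N2 embryos (0.79), and 145 in BB3 and 405 in N2 larvae (−1.48). The difference between the stages passed the test with a spread of 20% for 15 members, all higher in embryos, where 0.708% of all genes passed in that direction. Of the 49 collagen genes called higher in BB3 embryos 41 were called lower at L4, where 38 collagens were called higher and 69 lower. In the test of the difference between the stages 7 collagens passed as higher in embryos and 4 as lower. Among these 4 was col-98 (15.8 in BB3 and 23.2 in N2 embryos, −0.55), which had 737 in BB3 and 262 in N2 larvae (1.49).

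**Figure D5:**
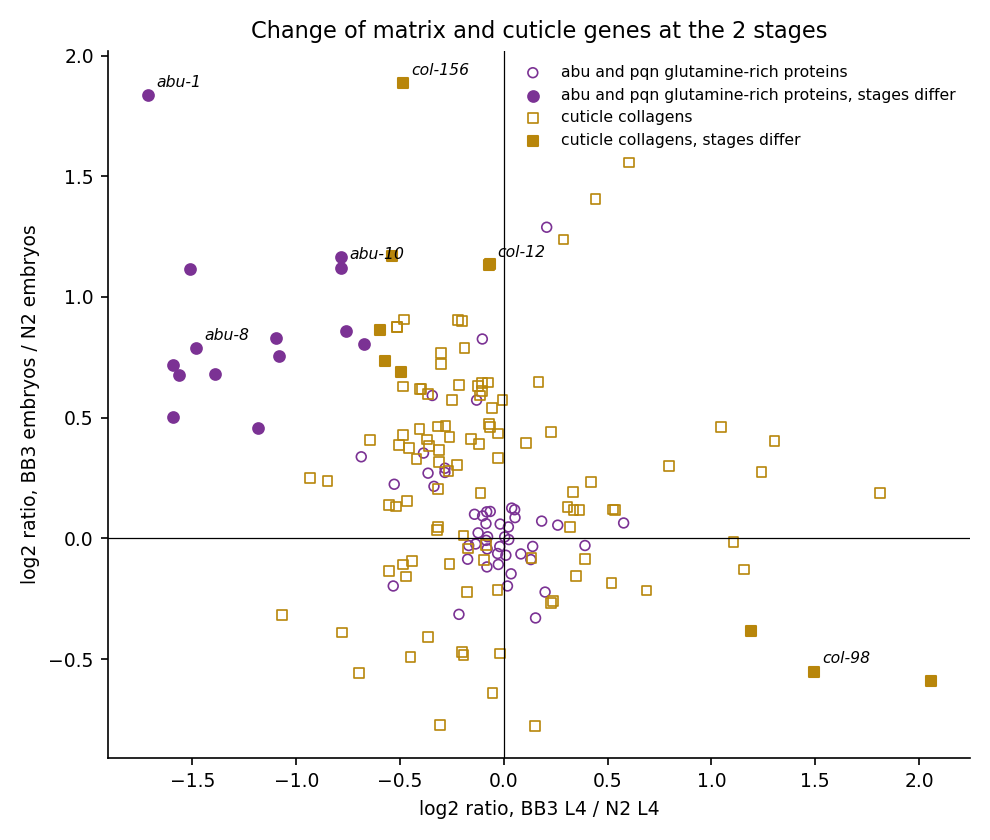
Each point is an abu or pqn gene (circles, 62 genes) or a cuticle collagen gene (squares, 111 genes) with an average embryo mean of at least 10. The x axis gives the log2 ratio of BB3 over N2 in L4 larvae and the y axis that in embryos, and filled points passed the test of the difference between the stages (14 and 10 genes). In the upper left of the plot, above N2 in embryos and below it at L4, lie 32 and 59 genes.

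Hedgehog-related and Patched-related genes, which in this worm act in cuticle and epidermis, had 28 of 87 members called higher and 4 lower (32.2% and 4.6%), with a median of 0.07. grd-6 had 167 in BB3 embryos and 70.6 in N2 embryos (1.25), and the neighbours grd-3 and grd-10 stood at 1.35 and 1.37. grl-21 had 55.8 in BB3 embryos and 20.8 in N2 embryos (1.42), and grl-23 had 27 in BB3 embryos and 9.58 in N2 embryos (1.5). Neither rose in RB886 embryos (−0.31 and −0.39), and the difference of strains, 1.70 ± 0.33 and 1.81 ± 0.41 (log2, SE), passed the test for both. In adr-1 mutant embryos grl-21 had 44.2 in BB19 and 45.8 in BB2, against 20.8 and 21.6 in N2 embryos. There grl-23 had 11.8 in BB19 and 12 in BB2, against 9.58 and 9.95 in N2 embryos. Members called lower were ptr-22 (−0.35), qua-1 (−0.21), grd-2 (−0.20) and ptr-4 (−0.13).

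Gut and detoxification genes moved both ways. Of 51 intestinal genes 19 were called higher and 11 lower (37.3% and 21.6%). The aspartyl protease gene asp-5 had 781 in BB3 embryos and 573 in N2 embryos (0.45), the intermediate filament gene ifc-2 708 in BB3 embryos and 451 in N2 embryos (0.65), and ges-1, a gut esterase, 489 in BB3 embryos and 568 in N2 embryos (−0.22). Among 190 detoxification genes 29 were called higher and 20 lower (15.3% and 10.5%), with a median of 0.09. cyp-14A5, a cytochrome P450 gene, had 194 in BB3 embryos and 69.2 in N2 embryos (1.49), with 67.3 in RB886 embryos and 72.5 for N2 in that table (−0.11). Its difference of strains, 1.59 ± 0.26 (log2, SE), passed the test. In adr-1 mutant embryos cyp-14A5 was high as well, with 161 in BB19 and 184 in BB2, against 69.2 and 71.8 in N2 embryos. ugt-44, a glucuronosyltransferase gene, stood at 1.43 in BB3 and 0.15 in RB886 embryos. It had 75 in BB19 and 78.3 in BB2 embryos, against 27.6 and 28.6 in N2 embryos. cyp-25A6 (68.7 in BB3 and 107 in N2 embryos, −0.64) and ugt-14 (−0.61) fell. Of 57 ABC transporter genes 22 were called higher and 3 lower (38.6% and 5.26%, median 0.06), and pgp-14 had 478 in BB3 embryos and 216 in N2 embryos (1.15). Of 6 yolk protein genes only vit-6 was called, lower, with 24.0 in BB3 embryos and 39.5 in N2 embryos (−0.72).

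Most antimicrobial and lectin genes were of low level in embryos. Of 109 antimicrobial genes tested 17 were called higher and 1 lower (15.6% and 0.917%, median 0.35), and 44 had an average mean of at least 10. The called members included fipr-6 with 32.5 in BB3 embryos and 11.2 in N2 embryos (1.53) and fipr-8 with 66.4 in BB3 embryos and 23.9 in N2 embryos (1.48). Of 30 further genes, 25 of them arrestin-domain (arrd) genes, 4 were called higher and 0 lower (13.3% and 0%), all 4 arrd genes. cul-6, skr-3, skr-4, skr-5 and drh-1, known from the intracellular pathogen response, had no call. C-type lectin genes had 25 of 240 called higher and 2 lower (10.4% and 0.833%), and 68 had an average mean of at least 10. The share called higher equals that over all genes, and over all genes 5.83% were lower. clec-223 had 46.2 in BB3 embryos and 14.4 in N2 embryos (1.68).

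RNA interference genes moved in both directions. Of 66 RNA interference and small RNA genes 16 were called higher and 6 lower (24.2% and 9.09%), with a median of 0.04, the same as over all genes. sid-1, the double-stranded RNA channel, had 400 in BB3 embryos and 320 in N2 embryos (0.32), and sid-2, which takes up double-stranded RNA from the gut, 62.0 in BB3 embryos and 47.9 in N2 embryos (0.37). ergo-1, the Argonaute of the endogenous pathway, stood at 0.18, and xrn-2, an exonuclease, at −0.20. Of 9 transcripts with long-known editing sites 1 was called higher and 1 lower (11.1% each, beside 10.4% and 5.83% over all genes). clec-41 had 320 in BB3 embryos and 244 in N2 embryos (0.39). rncs-1, a noncoding RNA with a long hairpin that inhibits Dicer, fell to 68.5 in BB3 embryos, against 114 in N2 embryos (−0.74), with −1.13 in RB886 embryos and −0.88 in BB3 L4 larvae.

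RNAs that the authors list as bound by FLAG-tagged ADR-1 in young adults were described beside their change in BB3 embryos. The authors compared pull-downs of strains HH76 and HH134 with those of BB21, the untagged control. HH76 makes tagged ADR-1 in animals with adr-2, and 1113 of its 1237 bound genes were tested in embryos, of which 23.1% were called higher and 10.9% lower. HH134 makes it in animals without adr-2, and of 1086 tested bound genes 22.6% were called higher and 10.8% lower. Bound genes are abundant, with a median average mean of 403 and 427.5 (21.25 over all genes tested). Among the 10001 genes with an average mean of at least 100, 18% were called higher and 14.4% lower. Of the genes described above, twk-5, unc-22, clec-41 and acdh-1 are bound in both strains, haf-6 in HH134 alone, and C08F11.1, nsy-1 and hsp-70 in neither list.

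Against embryos of the other adr-2 allele, in a test where the shared N2 libraries cancel, 66 of 26417 genes differed with an assumed spread of 20% (0.25%), 47 higher (0.178%) and 19 lower (0.0719%) in BB3. Of the 47, 14 are tRNA genes by name with one set of means, so they count as 1 measurement. The 47 genes form 34 sets by their BB3 embryo, RB886 embryo and BB3 L4 means. Some of these sets have the same embryo means and differ only at L4, so separate measurements in embryos are fewer than 34. Of the 66 genes, 3 of the higher and 9 of the lower ones had an average embryo mean of at least 100. The lower ones include hsp-70, hsp-16.11, acdh-2, ins-13 and col-88 (−0.56 in BB3 and 0.65 in RB886 embryos). With a spread of 10%, 533 genes differed (2.02%).

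Against L4 larvae of the same strain, read against N2 larvae, 235 of 24577 genes changed differently with a spread of 20% (0.956%). Of these 174 were higher in embryos (0.708%) and 61 lower (0.248%), and 208 of the 235 had opposite signs at the stages. Signs were counted whether or not a ratio was called, and some ratios lie near 0. Of the 174, 54 are noncoding RNA genes by the RefSeq annotation whose ratios lay between 0.02 and 0.16 in embryos and between −1.51 and −1.38 at L4. Their means differ from gene to gene and their ratios are nearly equal, and whether their reads are separate was not tested. Of the 61, 14 are noncoding RNA genes, with ratios between 0.21 and 0.28 in embryos and between 1.68 and 1.89 at L4. Some of these 14 share all their means in pairs, so the reads of a pair cannot be told apart. The protein-coding genes numbered 113 higher and 47 lower in embryos. Among the 47 were the cuticle genes dpy-10 (2990 in BB3 and 3330 in N2 embryos, −0.16) with 1510 in BB3 and 684 in N2 larvae (1.14), and let-653, a mucin-like matrix gene, with 310 in BB3 and 129 in N2 larvae (1.26). T05A7.11 had 773 in BB3 embryos (0.66), and 210 in BB3 larvae with a log2 ratio of 4.99. With a spread of 10%, 1025 genes differed (4.17%).

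Classes of RNA differed in how many members were called. Of 111 spliceosomal RNA genes 30 were called higher and 0 lower (27% and 0%), and of 19 ribosomal RNA genes 5 were called higher and 0 lower (26.3% and 0%). rrn-3.1, a large-subunit ribosomal RNA gene, had 46300 in BB3 embryos and 28500 in N2 embryos (0.70), and −0.10 in RB886 embryos. Its difference of strains, 0.80 ± 0.24 (log2, SE), did not pass the test. Ribosomal RNA had been removed before sequencing and these genes are repeats, so reads of the copies cannot be told apart. Of 132 microRNA genes 3 were called higher (2.27%), in libraries of the high molecular weight fraction. Protein-coding genes had 12.7% called higher and 7.33% lower.

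Transcripts of fln-2 differed in their ratios, a difference that was not tested. fln-2 encodes a filamin, a crosslinker of actin. Its transcript b had a mean of 385 in BB3 embryos and 851 in N2 embryos (log2 ratio −1.14), and its transcripts a, c and d stood at −0.35, −0.28 and −0.26.

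The remaining groups follow by their counts. Nuclear hormone receptor genes had 12 of 283 called higher and 18 lower (4.24% and 6.36%), F-box and MATH-domain genes 22 of 495 higher and 25 lower (4.44% and 5.05%), and chemoreceptor genes 13 of 1223 higher and 3 lower (1.06% and 0.245%), most of them below an average mean of 10. Of 79 sperm genes 0 were called, with a median of −0.27. Mitochondrial respiratory genes had 2 of 31 higher and 4 lower (6.45% and 12.9%), and translation factor genes 3 of 29 higher and 4 lower (10.3% and 13.8%). Genes of the endoplasmic reticulum's unfolded protein response had 2 of 13 higher and 3 lower (15.4% and 23.1%). Over all genes 10.4% were called higher and 5.83% lower. Of 33 globin genes 7 were called higher and 2 lower (21.2% and 6.06%). Of 9 lactamase-related genes 3 were called higher and 3 lower (33.3% each), where lact-6 had 18.6 in BB3 embryos and 41.7 in N2 embryos (−1.17). The authors' lists of embryo changes name 46 genes up and 17 down in adr-2 mutants, and all were called in that direction in BB3 embryos. The rule behind those lists was not stated. They were deposited with these same embryo comparisons, so the match is not independent support for the calls. The following genes named above lay outside the rule for named genes and were chosen after their values were seen: T05A7.11, Y102A5C.36, fln-2, abu-8, col-12, col-13, col-88, col-98, dpy-10, let-653, sqt-1, grd-3, grd-6, grd-10, ptr-4, cha-1, dat-1, eat-4, snt-1, pdf-1, egl-23, myo-2, ttn-1, hsp-16.2, hsp-16.41, fat-7, cat-1, bas-1, his-57, asp-5, ges-1, ifc-2, pgp-14, ergo-1 and sid-1.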

How the data were processed

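Bowtie and DESeq are named as tools, and ce10 as genome build, in the submitters' processing notes, which give neither versions nor roles. Aligner settings, annotation and strand use are not stated. The authors deposited 1 table per strain and stage. Per the file headers each holds, per transcript, the mean normalised read count (a signal value) of mutant and of N2 libraries, their ratio as a fold change, and a p-value with its adjusted form. For RNA bound by tagged ADR-1 the authors deposited log2 fold changes with standard errors and test statistics (score values) per the file headers, and only the membership of those lists was used. The tables of allele ok735 spell the strain RB668 where the labels have RB886, and were matched by allele and stage. Libraries were grouped by strain and stage as labelled, and 8 tables were read. Library values were not used, so no model over libraries was fitted and no replicate was left out.

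For a gene with several transcripts the one with most reads, summed over the means of the 8 tables, was taken, giving 30304 genes from 34873 transcripts. A call is the authors' deposited adjusted p under 0.05. Differences between BB3 and RB886 embryos, and between embryos and L4 larvae, were tested with a two-sided normal test on log2 ratios, with 0.5 added to each mean, counting error plus an assumed spread of 20% between libraries, and Benjamini-Hochberg adjustment over all genes. The test of a ratio and of a difference between strains was run on simulated libraries. Their spread was the one that the test assumed, so this cannot show how it behaves at another spread. The difference between stages was not simulated. A fit at an average mean of at least 2000 put the log2 ratio that the deposited p takes as no change at about 0.036. Single genes depart from this fit, and some were called at nearly that ratio.

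Gene names and kinds came from RefSeq (assembly WBcel235), matched for 28900 genes (95.4%). No depth per library is known. The 35 gene lists and the genes described were chosen with earlier results of these data known. Named genes number 272, of which 249 were called. Most were picked among called genes with an average mean of at least 10. These are the 15 largest changes in each direction, the 8 largest in each direction at an average mean of at least 1000, and up to 3 members per list and direction. Called neighbours were added at any mean, and every member of the editing and kinase lists at any mean and without need of a call. Python 3.11.15, pandas 2.3.3, NumPy 2.4.6, SciPy 1.17.1 and matplotlib 3.10.9 were used.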

Additional observations from a re-analysis of the deposited data

Results flagged for a closer look

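For 17 of the named genes the change in BB3 embryos differed from the change in BB3 L4 larvae by the test of the difference itself, with an assumed spread of 20% between libraries. Each difference is the embryo change minus the L4 change on the log2 scale after adding 0.5 to each mean, with its SE under that spread, and so can be smaller than the difference of the deposited ratios. Of the 17, 14 stood higher in embryos and 3 lower, and 14 had opposite signs at the stages. Signs were counted whether or not a ratio was called. L4 ratios without a call included those of twk-24 (−0.01), pgp-12 and cyp-14A5 (each −0.03) and ugt-44 (−0.12). No cause of these differences was tested.

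The widest difference was 6.40 ± 0.83 for C08F11.1, with a log2 ratio of 6.87 in embryos and −0.55 at L4. In the glutamine-rich family it was 3.66 ± 0.55 for pqn-2, 3.44 ± 0.51 for abu-1 and 1.91 ± 0.45 for pqn-37. Cuticle collagen genes differed by 2.30 ± 0.45 for col-156 and 1.19 ± 0.33 for col-145. The Hedgehog-related gene grl-23 differed by 2.89 ± 0.55, with 1.5 in embryos and −1.51 at L4.

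Among detoxification and transport genes the difference was 1.51 ± 0.34 for cyp-14A5, 1.54 ± 0.37 for ugt-44 and 1.55 ± 0.43 for the ABC transporter gene pgp-12. The potassium channel gene twk-24 differed by 1.28 ± 0.36 and the lactamase-related gene lact-7 by 1.61 ± 0.35. The uncharacterised genes Y50E8A.19 and F33C8.4 differed by 2.86 ± 0.61 and 1.76 ± 0.41.

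The 3 genes with the lower embryo value were F53A2.3, nhr-172 and nsy-1. F53A2.3 differed by −2.58 ± 0.36, with 0.38 in embryos and 2.98 at L4. The nuclear hormone receptor gene nhr-172 differed by −2.58 ± 0.72, with −0.91 in embryos and 1.91 at L4, and nsy-1 by −1.28 ± 0.33.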

How the results depend on the processing

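No paired analysis was possible because only group means were used, and for the same reason no library could be left out. The 4411 called genes became 843 (733 higher and 110 lower) with an assumed spread of 10%, 125 (109 higher and 16 lower) with 20%, and 121 (103 higher and 18 lower) with 20% after recentring the log2 ratios, a shift of 0.02. At an adjusted p under 0.01, 2999 remained past the threshold, with 1984 higher and 1015 lower. The 426 genes changed at least 2-fold numbered 191 at an average mean of at least 10 and 381 after adding 1 to each mean. With a spread of 10%, 533 genes differed between BB3 and RB886 embryos (66 with 20%) and 1025 between embryos and L4 larvae (235 with 20%). Filtering on an average mean of at least 10, or counting every transcript, left the number of calls within 1.5 times, at 4171 and 5648. Of the 249 named genes that were called, 118 kept direction and call with 10%, 48 with 20% and 50 after recentring, where pdi-3 turned to −0.0087 against 0.02 as deposited. Adding 5 in place of 1 to each mean moved the list medians of sperm to −0.11, antimicrobial to 0.12 and neuropeptide genes to 0.14, and an average mean of at least 10 moved the antimicrobial median to 0.15. The assumed spread is not a measured one, so calls lost under it show what these means alone cannot settle.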
